A study of Arabidopsis thaliana with 12 samples.

Results

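The 6 leaf libraries of the series were grouped by the level of MRD1 (AT1G53480), a gene chosen as a marker because its transcript separated the libraries into a high and a low set that cut across their labels. MRD1 was at 36.8, 39.3 and 35.8 CPM (the count of a gene scaled to the same total for every library) in the libraries labelled WT leaf 1, WT leaf 3 and pi4kß1ß2 leaf 1, and these 3 libraries are called MRD1-high. It was at 0.730, 0.917 and 1.01 CPM in the libraries labelled WT leaf 2, pi4kß1ß2 leaf 2 and pi4kß1ß2 leaf 3, called MRD1-low. The threshold was 5 CPM, and the libraries nearest to it were pi4kß1ß2 leaf 3 at 1.01 and pi4kß1ß2 leaf 1 at 35.8 CPM. Each set thus held 3 of 6 leaf libraries, out of 12 libraries in all. For every gene below, values are given in the order WT leaf 1, WT leaf 3 and pi4kß1ß2 leaf 1 for the MRD1-high libraries, and WT leaf 2, pi4kß1ß2 leaf 2 and pi4kß1ß2 leaf 3 for the MRD1-low libraries. The sets come from a measured value and not from labels. The values that separate them are therefore a description without a test, and MRD1 itself is not counted among the results.

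RNAseq was performed on roots and leaves of Arabidopsis seedlings aged 7 days, of the Col-0 wild type (WT) and of the pi4kß1ß2 double mutant, which carries a T-DNA insertion in each of 2 genes, with 3 libraries for each genotype and organ. The mutant is a single combination of insertion alleles, and each root sample was RNA pooled from many plants. The study describes the roots, whereas how the leaf samples were pooled is not given in the sources used here. Replicates are separate samples by their labels, so p-values measure the spread between these samples. Both leaf libraries numbered 1 were MRD1-high and both numbered 2 were MRD1-low, so only the pair numbered 3 tells the sets apart from the replicate number. Between 38116716 and 41095056 reads per leaf library and between 39313257 and 46577151 per root library were counted on genes, and no pair of leaf libraries agreed within sampling noise. The library labelled WT leaf 3 carries another entry than the other leaf libraries in the field for the developmental stage. MRD1 overlaps HEI10 on the opposite strand and had only 0 to 2 counts per leaf library when strand was ignored, so the sets rest on the counts by strand. In roots, where the sets played no part, MRD1 was at 50.7 to 54.7 CPM in WT and at 0.408 to 1.74 CPM in pi4kß1ß2.

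PI4Kß1 and PI4Kß2 are phosphatidylinositol 4-kinases. They make phosphatidylinositol 4-phosphate on membranes of the trans-Golgi network, a lipid that acts in vesicle trafficking and is the substrate for further phosphoinositides. Plants that sense iron deficiency induce bHLH transcription factors of subgroup Ib, which act together with FIT to switch on the ferric reductase FRO2 and the iron transporter IRT1, in roots above all.

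The genotyping primers of the study show where in the kinase genes the insertion alleles were assayed, and they are printed because the kinase transcripts are set beside the labels below.
PI4Kß1 forward: aggacgtaaccagaggggtag
PI4Kß1 reverse: cgttgtgacccgtcattaatc
PI4Kß2 forward: aaacctccttatcttccgctg
PI4Kß2 reverse: atgaacgaaattgggttctcc
Each primer had a single exact match in the RefSeq assembly TAIR10.1, a later release of the TAIR10 assembly that the study names. The PI4Kß1 (AT5G64070) pair spans chr5:25639176-25640293, a segment of 1118 bases. Its forward primer lies in exon 9 of 16 and its reverse primer in an intron. The PI4Kß2 (AT5G09350) pair spans chr5:2900744-2901865, a segment of 1122 bases, with both primers in introns. Both genes are on the minus strand, and counts of a whole gene include reads on either side of an insertion.

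Both kinase transcripts were lower in every MRD1-low library than in any MRD1-high library. PI4Kß1 was at 50.8, 58.0 and 61.0 CPM in the MRD1-high libraries and at 41.0, 45.2 and 42.8 CPM in the MRD1-low libraries. PI4Kß2 was at 9.82, 10.3 and 8.47 CPM against 4.02, 5.37 and 5.64 CPM. The library labelled WT leaf 2 had the lowest level of both kinases among the 6 leaf libraries, while the library labelled pi4kß1ß2 leaf 1 had the highest level of PI4Kß1. By label neither kinase was called in leaves (edgeR quasi-likelihood test, adjusted p = 0.940 for PI4Kß1 and 0.712 for PI4Kß2). In roots, grouped by label, both fell in pi4kß1ß2. The log2 fold change was -0.63 ± 0.05 (SE, adjusted p = 0.000103) for PI4Kß1 and -1.07 ± 0.08 (SE, adjusted p = 9.83e-05) for PI4Kß2. The labels of WT leaf 2 and pi4kß1ß2 leaf 1 are thus at odds with the kinase transcripts, whereas clock and cold genes followed the labels (below). The genotype of the leaf libraries was not tested, and the label comparison in leaves carries that limit throughout.

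NAC103 (AT5G64060), a NAC transcription factor gene on the same strand 1093 bases from PI4Kß1, separated the sets more widely than the kinases. It was at 2.52, 2.91 and 2.15 CPM in the MRD1-high libraries and at 0.584, 0.393 and 0.442 CPM in the MRD1-low libraries. Leaf genes were kept when 3 or more of the 6 libraries reached 1 CPM. NAC103 did so only in the MRD1-high libraries, so it had to separate. In roots NAC103 fell by 2.58 ± 0.21 on the log2 scale (SE, adjusted p = 0.000149). XYP1, the nearest gene on the other side of PI4Kß1 at 731 bases, overlapped between the leaf sets. In roots it was called lower in pi4kß1ß2 as well (log2 fold change -0.49, adjusted p = 0.0153).

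**Figure D1:**
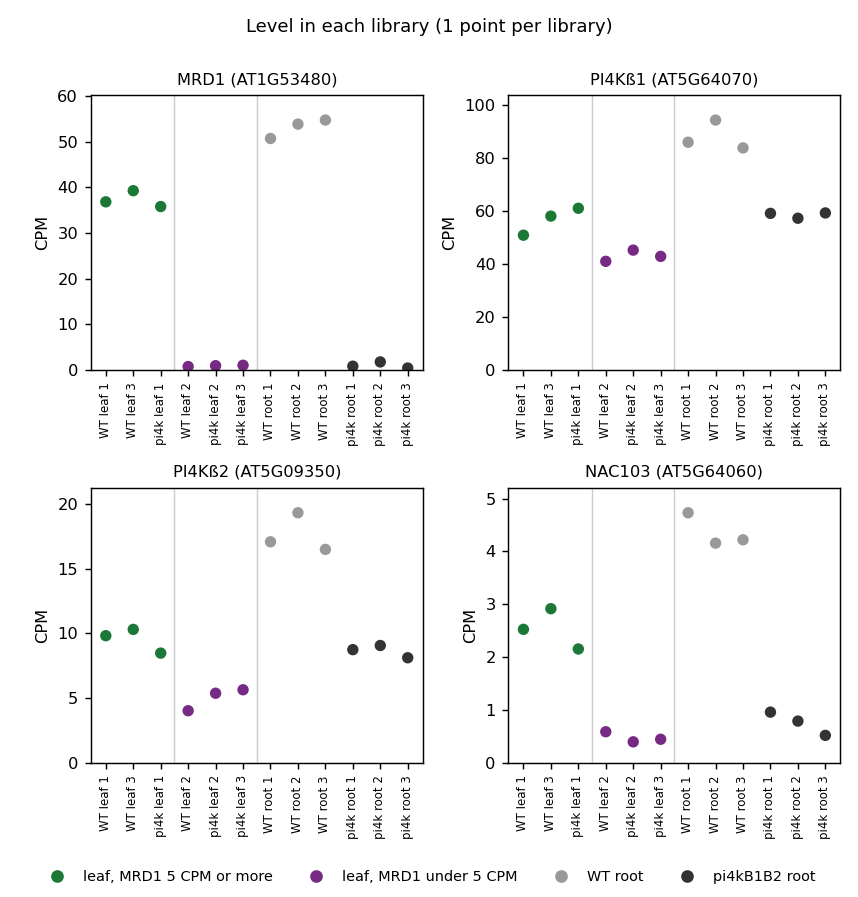
Level in CPM (vertical axis) of MRD1, PI4Kß1, PI4Kß2 and NAC103 in each of the 12 libraries (horizontal axis, 1 point per library, coloured by leaf set or root genotype). PI4Kß1, PI4Kß2 and NAC103 were lower in all 3 MRD1-low leaf libraries than in any MRD1-high library, and lower in pi4kß1ß2 than in WT roots.

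Of 19469 leaf genes that reached 1 CPM in 3 or more of the 6 libraries, 820 (4.21%) were lower in every MRD1-low library than in every MRD1-high library, 2816 (14.5%) were higher, and 15833 overlapped. Under the same rule the labels separated more genes, with 4381 lower and 2666 higher in the 3 libraries labelled pi4kß1ß2. Scaling by TMM in place of the column sum gave 1570 lower and 2179 higher, so that the share of higher genes among those that separated was 77.4% by column sum and 58.1% by TMM. A gene below 1 CPM in every library of one set passed the filter on low counts only through the other set and had to separate. This held for 159 of the 2816 higher and 24 of the 820 lower genes. Most of the separations were narrow. The gap is the log2 ratio of the nearest 2 libraries of the sets, after adding 0.5 CPM to each. It reached 1 for 8 lower genes (0.0411%) and 71 higher genes (0.365%). Together these 79 genes lay on every nuclear chromosome, with 26 on chromosome 1, 13 on chromosome 2, 14 on chromosome 3, 10 on chromosome 4 and 16 on chromosome 5.

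AT5G35935, AT1G64795 and AT1G75945, genes without a described function, were near 0 in the MRD1-high libraries and well expressed in the MRD1-low libraries. They passed the filter on low counts only through the MRD1-low libraries, so they had to separate. AT5G35935, annotated as a pseudogene, had the widest gap of all, with 0.220, 0.220 and 0.0262 CPM against 22.1, 19.2 and 22.4 CPM. AT1G64795 was at 0.294, 0.0245 and 0.184 CPM against 21.0, 13.7 and 13.0 CPM (gap 4.09, or 2.89 when strand was ignored), and AT1G75945 at 0.220, 0.147 and 0.498 CPM against 11.0, 9.38 and 11.0 CPM. The root genotypes split in the same direction for all 3. Root libraries did not form the sets, but MRD1 itself also differed between the root genotypes. AT5G35935 was at 0.209 to 0.326 CPM in WT roots and at 30.9 to 33.0 CPM in pi4kß1ß2 roots. It rose in pi4kß1ß2 roots by a log2 fold change of 6.87 ± 0.12 (SE, adjusted p = 1.21e-07), AT1G64795 by 6.72 ± 0.25 (SE, adjusted p = 2.04e-05) and AT1G75945 by 7.79 ± 0.29 (SE, adjusted p = 9.66e-06). These were also the 3 largest rises among the root genes named here. The middle MRD1-low leaf library reached 69.3% of the middle pi4kß1ß2 root library for AT5G35935, 59.1% for AT1G64795 and 82.6% for AT1G75945.

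AT2G12462, which encodes a protein with a sterile alpha motif, was the widest case in the other direction. It was at 13.7, 10.2 and 5.59 CPM in the MRD1-high libraries and at 0.341, 0.445 and 0.338 CPM in the MRD1-low libraries. In roots it was at 21.5 to 27.2 CPM in WT and at 0.0983 to 0.279 CPM in pi4kß1ß2, a log2 fold change of -7.13 ± 0.23 (SE, adjusted p = 9.66e-06) and the largest fall among the root genes named. No leaf gene had at least 1 CPM in all libraries of one set and under 0.1 CPM in all of the other, so even these genes left reads in the set where they were low.

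**Figure D2:**
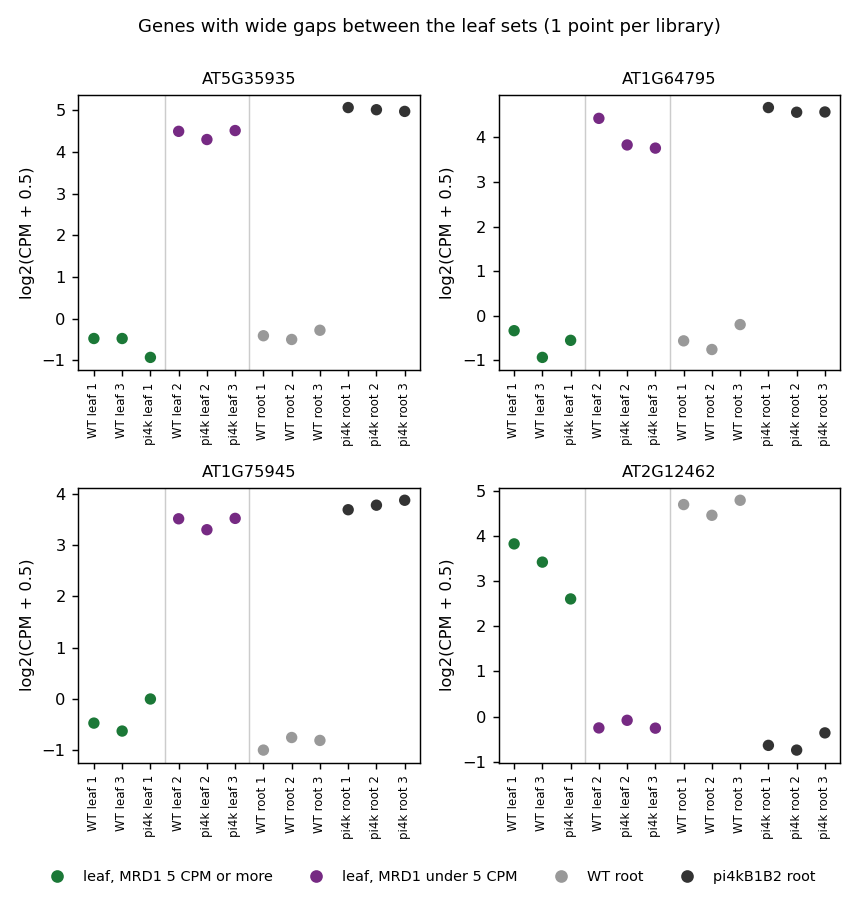
Level as log2(CPM + 0.5) (vertical axis) of AT5G35935, AT1G64795, AT1G75945 and AT2G12462 in each of the 12 libraries (horizontal axis, 1 point per library). The MRD1-low leaf libraries lie near the pi4kß1ß2 root libraries and the MRD1-high ones near WT roots for the first 3 genes, with gaps between the leaf sets of 4.77, 4.09 and 3.31, and AT2G12462 has a gap of -2.69.

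Further lower genes with wide gaps came from several families. AT1G52820, a 2-oxoglutarate-dependent oxygenase, was at 1.76, 1.79 and 2.05 CPM against 0.365, 0.419 and 0.390 CPM, and it fell in pi4kß1ß2 roots by 4.04 ± 0.12 on the log2 scale (SE, adjusted p = 3.78e-06). When strand was ignored, its leaf gap shrank from -1.30 to -0.01 and its root log2 fold change to -2.40. AT5G11330, a FAD-dependent oxidoreductase, was well expressed, at 51.6, 51.9 and 49.6 CPM against 22.7, 21.4 and 21.8 CPM, and fell in roots by 1.26 ± 0.06 (SE, adjusted p = 2.17e-05). The spread of AT5G11330 within each set was small beside the distance between the sets. TPS12, a terpenoid synthase, FLA13, a fasciclin-like arabinogalactan protein, and the pseudogene AT2G04460 also were lower without overlap, and their root log2 fold changes were -2.98, -1.94 and -2.48. AT2G47880, a glutaredoxin, AT3G62950 and AT4G15700 of the thioredoxin superfamily and the non-coding RNA AT2G06995 were lower in the leaf set, but did not pass the filter on low counts in roots. Thus 7 of the 12 lower genes with the widest gaps fell in pi4kß1ß2 roots, 4 were not tested there, and PS2 was not called (adjusted p = 0.242). Of all genes tested in roots, 15.2% were called lower and 11.3% higher. All 12 of the higher genes with the widest leaf gaps rose in pi4kß1ß2 roots. Apart from ATC, AT1G74770 and TRI, these genes stayed below 1 CPM in every MRD1-high library. They passed the leaf filter only through the MRD1-low libraries and so had to separate. The same held in reverse for AT2G12462, AT2G47880, AT2G06995, AT3G62950, AT1G52820 and NAC103 among the lower genes.

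Of the 8 genes with the largest rise in pi4kß1ß2 roots, only the 3 above separated the leaf sets, and these 3 had to by the filter. The other 5 were SAG13, AT1G26390, AT1G26410, CYP71A13 and AT4G28420, and all overlapped in leaves. SAG13, a senescence-associated dehydrogenase gene, was at 1.71, 3.23 and 8.16 CPM in the MRD1-high libraries and at 4.87, 8.22 and 3.77 CPM in the MRD1-low libraries. CYP71A13, an enzyme of camalexin synthesis, was at 0.588, 1.15 and 1.39 CPM against 2.31, 1.89 and 1.22 CPM. Of the 8 genes with the largest fall, 5 did not reach the leaf filter on low counts. The other 3, AT2G12462, AT1G52820 and the glucosidase BGLU7, were all lower in the MRD1-low libraries. AT2G12462 and AT1G52820 passed the filter only through the MRD1-high libraries and had to be lower. Only BGLU7 was free to overlap or go the other way. BGLU7 was at 4.16, 3.62 and 6.85 CPM against 1.02, 1.57 and 1.95 CPM.

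Across all genes, the root test by label called 3000 genes lower (15.2%) and 2233 higher (11.3%) in pi4kß1ß2 among 19694. Of the 2777 lower ones measured in leaves, 273 (9.83%) were lower and 400 (14.4%) were higher in the MRD1-low libraries, beside 4.21% and 14.5% of all leaf genes. Of the 2001 higher ones, 696 (34.8%) were higher and 34 (1.70%) were lower. Among root calls past a log2 fold change of 1.5, 36 of 137 falling genes (26.3%) were lower in the MRD1-low leaf libraries, and 35 of 83 rising genes (42.2%) were higher. All these counts include genes that had to separate by the filter on low counts, whose number among the root calls was not determined. Past 1.5, AT5G35935, AT1G64795, AT1G75945, IRT1, FRO2, NAS2, CYP82C4, bHLH38 and bHLH39 are such rising genes. Such falling genes are AT2G12462, AT1G52820 and NAC103. Among leaf genes that were tested and not called in roots, 2.66% were lower and 12.4% higher. Most of the genes called in roots overlapped between the leaf sets, namely 2104 of the 2777 lower and 1271 of the 2001 higher ones.

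Many of the separating genes differed in level between the organs. Of the 2816 genes that were higher in the MRD1-low libraries, 2553 (90.7%) had a higher level in every root library than in every leaf library, as had 53.3% of all measured leaf genes. Of the 820 lower genes, 507 (61.8%) were higher in every leaf library than in every root library, beside 20.7% of all. Most genes of the first kind still overlapped between the sets, 7737 of 10369, and 2553 of 10369 (24.6%) were higher in the MRD1-low libraries. All genes with a higher level in every root library took 35.6%, 37.7% and 32.1% of the counts in the MRD1-high libraries and 39.99%, 36.6% and 35.9% in the MRD1-low libraries, so these shares overlapped. The 10 root markers were all detected in every leaf library, and 6 of them, PIN2, WER, SHR, CASP1, RHD2 and PHO1, were higher in the MRD1-low libraries without overlap. Their summed level was 61.4 to 83.6 CPM in the MRD1-high libraries, 123 to 177 CPM in the MRD1-low libraries and 759 to 865 CPM in roots. The 5 leaf markers, at 44357 to 46674 and 40598 to 49292 summed CPM, overlapped between the sets, and in roots they summed to 123 to 452 CPM, so that the leaf label held in all 6 libraries. The part of root transcripts in these results was not tested. In bulk samples, more cells of a type and more RNA per cell cannot be told apart.

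PHO1, the phosphate exporter of the root stele, was the widest of the root markers, at 27.2, 24.9 and 22.8 CPM in the MRD1-high libraries and at 77.1, 59.6 and 51.6 CPM in the MRD1-low libraries. TIP2-3, another root marker, was at 2.92, 2.96 and 3.04 CPM against 3.53, 2.80 and 2.44 CPM and overlapped, although its level in roots was 14.5 to 53.7 CPM. Without the genes that were higher in every root library, 741 of 9100 genes were lower and 263 were higher in the MRD1-low libraries (8.14% and 2.89%). In that remainder, 242 of 1535 genes that fell in pi4kß1ß2 roots (15.8%) were lower and 14 were higher. Of 729 genes that rose in pi4kß1ß2 roots, 93 (12.8%) were higher and 33 lower. These counts too include genes that had to separate by the filter on low counts. AT5G35935, AT1G64795 and AT1G75945 had at most 0.373 CPM in any WT root library and 12.4 to 33.0 CPM in pi4kß1ß2 roots. AT2G12462 was below 0.5 CPM in the MRD1-low leaf libraries, at more than 20 CPM in WT roots and at 0.0983 to 0.279 CPM in pi4kß1ß2 roots. The part of root transcripts in these levels was not tested.

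Of the iron deficiency list, 9 of 16 measured genes were higher and 1 lower in the MRD1-low libraries, beside 14.5% and 4.21% of all genes. Of these 9, 4 passed the filter on low counts only through the MRD1-low libraries (IRT1, FRO2, bHLH38 and bHLH39), as did 159 of the 2816 higher genes in all, so these had to differ and the count partly follows from the filter. The median difference between the middle libraries of the sets was 0.88 on the log2 scale over the list and 0.03 over all genes. Only FIT among the 9 higher genes had a higher level in every root library than in every leaf library. The upstream sequences of 3 of the bHLH Ib genes are shown because these genes rose together in roots and separated the leaf sets. The 250 bases before the annotated gene start are given 5′ to 3′ on the minus strand, on which all 3 genes lie, and the capitals mark the G-box, CACGTG, a palindrome that reads the same on both strands.
bHLH38 upstream: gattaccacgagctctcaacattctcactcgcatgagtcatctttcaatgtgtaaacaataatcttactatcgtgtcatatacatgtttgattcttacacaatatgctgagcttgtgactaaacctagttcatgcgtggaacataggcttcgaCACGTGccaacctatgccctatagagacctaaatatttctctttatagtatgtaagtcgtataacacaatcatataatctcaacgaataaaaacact
bHLH39 upstream: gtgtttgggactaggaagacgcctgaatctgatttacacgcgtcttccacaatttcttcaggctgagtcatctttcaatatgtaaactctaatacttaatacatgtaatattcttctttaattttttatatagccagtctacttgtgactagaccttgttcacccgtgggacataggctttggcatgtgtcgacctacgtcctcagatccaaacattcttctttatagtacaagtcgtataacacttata
bHLH100 upstream: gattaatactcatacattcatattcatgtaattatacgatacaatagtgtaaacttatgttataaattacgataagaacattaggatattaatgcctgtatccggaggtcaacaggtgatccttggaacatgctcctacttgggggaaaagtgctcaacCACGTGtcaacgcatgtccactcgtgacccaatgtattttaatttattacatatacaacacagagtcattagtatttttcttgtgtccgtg
The windows, taken from RefSeq TAIR10.1, are chr3:21085246-21085495 for bHLH38, chr3:21087711-21087960 for bHLH39 and chr2:17199455-17199704 for bHLH100. A G-box was found in 5 of the 17 windows of the list, those of bHLH38, bHLH100, BTS, OPT3 and FER4, and in 6.49% of 27431 windows of the same length before protein-coding genes. The window of bHLH39, the neighbour of bHLH38 on chromosome 3, held none, while BTS, which has 3, and OPT3, which has 1, overlapped between the leaf sets.

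Of the bHLH Ib regulators, bHLH38, bHLH39 and bHLH100 stayed below 2 CPM in the MRD1-high libraries. The fourth, bHLH101, missed the filter on low counts, with 0.686, 0.269 and 0.341 CPM against 2.75, 0.995 and 1.12 CPM, and was at 0.358 to 0.743 CPM over all root libraries. bHLH38 was at 0.539, 0.367 and 0.0787 CPM in the MRD1-high libraries and at 5.06, 4.14 and 4.47 CPM in the MRD1-low libraries. bHLH39 was at 0.269, 0.245 and 0.236 CPM against 5.09, 3.85 and 3.77 CPM, and bHLH100 at 0.171, 0.122 and 1.71 CPM against 3.67, 4.87 and 4.1 CPM. The MRD1-low leaf libraries exceeded every WT root library for all 3 genes, since WT roots held 0.712 to 1.49, 1.76 to 3.1 and 0.305 to 0.975 CPM. In pi4kß1ß2 roots they rose by log2 fold changes of 2.53 ± 0.27 (SE, adjusted p = 0.000709), 1.97 ± 0.25 (SE, adjusted p = 0.00179) and 2.62 ± 0.38 (SE, adjusted p = 0.00325). FIT, their partner, was at 1.96, 2.11 and 1.55 CPM against 3.41, 4.24 and 3.56 CPM, and was not called in roots (log2 fold change 0.16 ± 0.17, SE, adjusted p = 0.550).

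Their targets for iron uptake followed the same sets. IRT1, the iron transporter of the root epidermis, was at 0.465, 0.122 and 0.603 CPM in the MRD1-high libraries and at 13.3, 12.2 and 13.6 CPM in the MRD1-low libraries. FRO2, the ferric chelate reductase, was at 0.686, 0.710 and 0.708 CPM against 5.35, 5.89 and 5.33 CPM. Levels of IRT1 and FRO2 in the MRD1-low leaf libraries lay beside those of WT roots, which were 9.44 to 12.5 and 5.04 to 5.85 CPM, whereas pi4kß1ß2 roots held 47.0 to 75.7 and 18.3 to 26.1 CPM. In roots IRT1 rose by a log2 fold change of 2.48 ± 0.22 (SE, adjusted p = 0.00115) and FRO2 by 2.07 ± 0.15 (SE, adjusted p = 0.000145). NAS2, a nicotianamine synthase, and CYP82C4, a cytochrome P450 of the coumarin pathway, were outside the list and among the 12 widest gaps. NAS2 was at 0.294, 0.441 and 0.577 CPM against 6.18, 6.81 and 7.84 CPM, and CYP82C4 at 0.245, 0.0245 and 0.157 CPM against 3.99, 4.27 and 5.20 CPM.

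The peptide genes IMA1 and IMA2, which promote iron uptake, were higher in the MRD1-low leaf libraries than in any root library. IMA1 was at 2.16, 1.54 and 1.29 CPM in the MRD1-high libraries, 14.2, 7.20 and 6.21 CPM in the MRD1-low libraries and 0.882 to 2.25 CPM over the 6 root libraries. IMA2 was at 3.06, 1.49 and 1.52 CPM against 14.7, 7.52 and 6.91 CPM. The split of reads between IMA1 and IMA2, which are closely similar neighbours, is uncertain, and neither was called in roots (adjusted p = 0.178 and 0.293). NAS4, another nicotianamine synthase gene, was at 7.06, 6.27 and 5.14 CPM against 8.93, 10.4 and 11.2 CPM, all above the 2.34 to 5.02 CPM of the root libraries. The ferritin gene FER4, a store for iron, was the one lower gene of the list, at 91.8, 96.6 and 76.6 CPM against 58.4, 51.2 and 57.8 CPM. FER1, another ferritin, and OPT3, a phloem transporter, overlapped between the sets, and both passed the test by label in leaves (adjusted p = 0.0279 and 0.0154), calls that were lost without WT leaf 1 (adjusted p = 0.112 and 0.0705), WT leaf 3 (0.0888 and 0.0622) or pi4kß1ß2 leaf 2 (0.0798 and 0.0820). FER1 was also lost without WT leaf 2 (0.0504) or pi4kß1ß2 leaf 3 (0.0503). FER1 was at 104 and 127 CPM in WT leaf 1 and WT leaf 3, 92.0 CPM in WT leaf 2, and 476, 259 and 266 CPM in the libraries labelled pi4kß1ß2 leaf 1, leaf 2 and leaf 3.

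**Figure D3:**
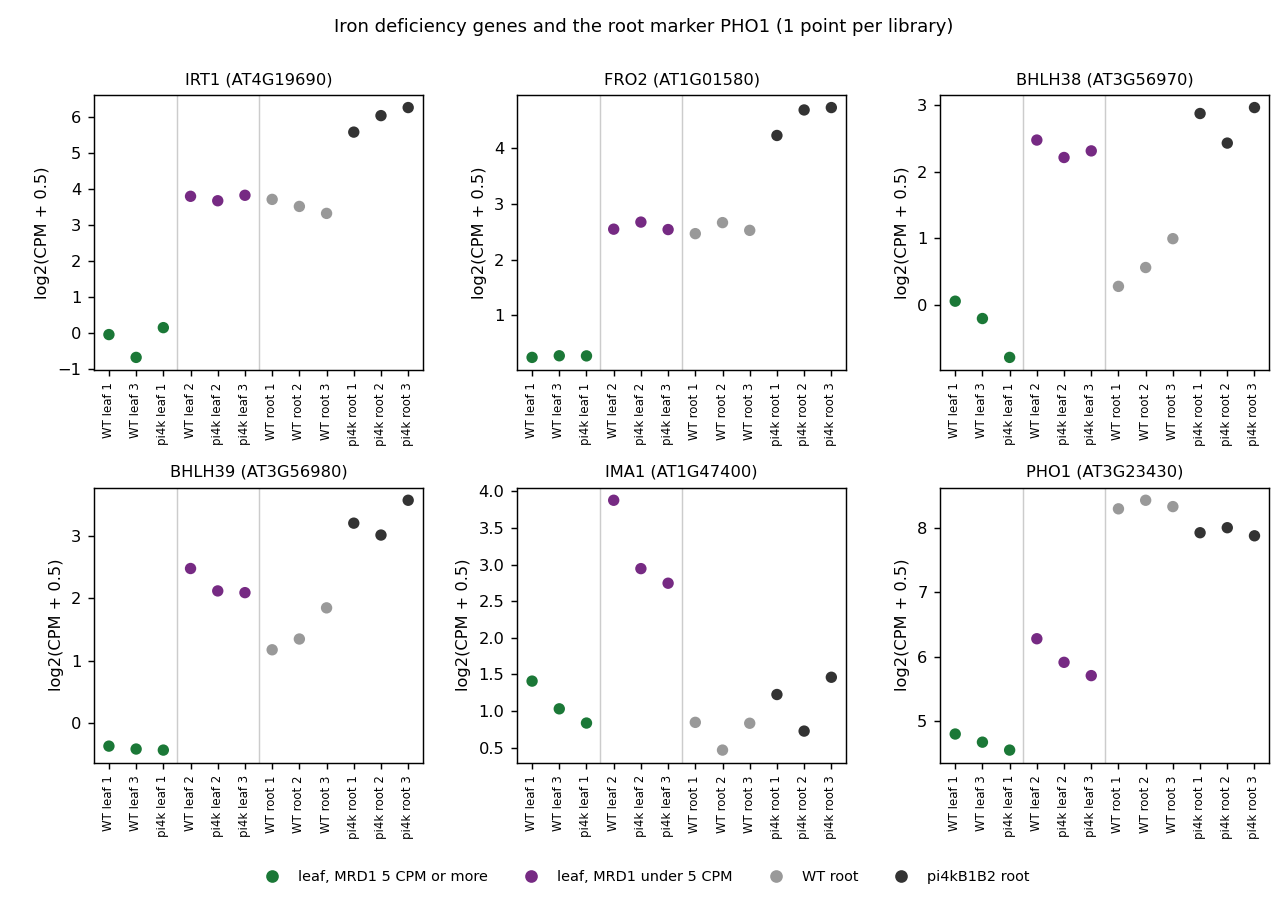
Level as log2(CPM + 0.5) (vertical axis) of IRT1, FRO2, bHLH38, bHLH39, IMA1 and the root marker PHO1 in each of the 12 libraries (horizontal axis, 1 point per library). The iron genes and PHO1 were higher in all 3 MRD1-low leaf libraries than in the MRD1-high ones, and PHO1 stayed below every root library, whereas IMA1 stood above them.

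Genes of aliphatic glucosinolate synthesis make sulphur-rich defence compounds from methionine. Of 17 measured, 11 were higher and 0 were lower in the MRD1-low libraries, beside 14.5% of all genes, and 10 were higher with TMM scaling. All 11 were among the genes with a higher level in every root library than in every leaf library, as were 12 of the 17, and 24.6% of all such genes were higher. MAM3, an enzyme of chain elongation, was at 28.7, 37.0 and 38.5 CPM against 118, 91.3 and 82.3 CPM, and CYP79F2, which begins the core pathway, at 17.5, 22.1 and 16.0 CPM against 57.8, 38.8 and 35.8 CPM. BASS5, a transporter of chain elongation intermediates, was at 20.01, 20.7 and 20.1 CPM against 38.8, 31.8 and 31.8 CPM. CYP79F1, the close paralogue of CYP79F2, with 1.02 to 4.01 CPM in roots, overlapped in leaves at 13.1, 13.2 and 24.4 CPM against 14.6, 14.5 and 13.3 CPM. The regulators MYB28 and MYB29 overlapped as well. In roots 10 of 16 tested genes of the list were called higher in pi4kß1ß2 and 0 lower, beside 11.3% and 15.2% of all genes tested in roots. MAM3 rose by a log2 fold change of 0.35 ± 0.04 (SE, adjusted p = 0.000995), while CYP79F2 and BASS5 were not called (adjusted p = 0.0578 and 0.235).

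Of 11 phosphate starvation genes, 3 were lower, beside 4.21% of all genes, 0 were higher and 8 overlapped. SPX3, an SPX domain protein of phosphate signalling, was at 1.35, 1.22 and 3.88 CPM against 0.730, 0.262 and 0.208 CPM. It passed the filter on low counts only through the MRD1-high libraries, so 1 of the 3 lower genes had to separate. MGD3, which makes galactolipid, was at 2.20, 1.59 and 10.7 CPM against 1.02, 0.550 and 0.623 CPM, and the phosphatase PS2 at 7.13, 7.42 and 15.3 CPM against 3.63, 2.02 and 1.07 CPM. The library labelled pi4kß1ß2 leaf 1 was the highest for each of the 3. MGD3 fell in pi4kß1ß2 roots (log2 fold change -1.22 ± 0.35, SE, adjusted p = 0.0369), a call that was lost without WT root 1 (adjusted p = 0.0837), WT root 2 (0.0973), pi4kß1ß2 root 2 (0.112) or pi4kß1ß2 root 3 (0.123). Of 10 genes of this list tested in roots, 5 were called lower and 0 higher, beside 15.2% and 11.3% of all genes tested in roots.

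Other lists held few separating genes, to be read beside the 14.5% higher and 4.21% lower among all genes. Of the camalexin genes, 2 of 8 were higher, namely PAD3 and CYP71A12. PAD3, which completes camalexin synthesis, was at 2.72, 2.64 and 4.70 CPM against 9.73, 8.85 and 7.43 CPM and rose in pi4kß1ß2 roots (log2 fold change 1.08 ± 0.15, SE, adjusted p = 0.00318). Of 14 indole glucosinolate genes, 3 were higher, MYB122, CYP81F1 and IGMT1, and all 3 were higher in every root library than in every leaf library. Of these 3, 1 passed the filter on low counts only through the MRD1-low libraries and had to be higher. Of 20 genes of salicylic acid and systemic immunity, 1 was lower and 1 higher, and the latter overlapped with TMM scaling. The lower one, PR5, which encodes a thaumatin-like pathogenesis-related protein, was at 25.8, 30.8 and 20.2 CPM against 13.6, 8.80 and 8.16 CPM, with at most 0.239 CPM in any root library.

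Of 19 auxin genes, 1 was lower and 3 were higher in the MRD1-low libraries (15.8% higher, near the 14.5% of all genes), and 1 was higher with TMM scaling. LAX1, an auxin influx carrier and the lower one, was at 27.1, 26.7 and 27.5 CPM against 21.0, 18.0 and 18.6 CPM, and it fell in pi4kß1ß2 roots by 1.36 ± 0.08 on the log2 scale (SE, adjusted p = 5.0e-05). Of 17 expansin and xyloglucan enzyme genes, 2 were lower and 2 higher. XTH9, a xyloglucan endotransglucosylase gene, was at 309, 274 and 281 CPM against 184, 195 and 206 CPM and fell in roots (log2 fold change -0.94 ± 0.08, SE, adjusted p = 0.000183). Of 12 jasmonate, 8 nitrate assimilation and 11 hypoxia genes, 2 of each were higher and 0 lower, shares of 16.7% and 25.0% for the jasmonate and nitrate lists. In the cell division list 1 of 16 was higher, in flavonoid synthesis 1 of 12 was lower and in photosynthesis 1 of 23. In the heat shock and senescence lists, 0 of 5 and 0 of 8 separated the sets. Among markers of other organs, SEP3 of flowers was lower, 1 of the 2 flower markers measured, and the seed oleosin OLE1 was higher, the only seed marker measured, at 1.22 to 1.56 CPM in the MRD1-low libraries. OLE1 passed the filter on low counts only through the MRD1-low libraries, so it had to be higher. Summed over their lists, flower markers stood at 41.3 to 49.0 CPM in the MRD1-high and 34.0 to 36.7 CPM in the MRD1-low libraries. Seed markers summed to 0.682 to 1.08 CPM and 2.73 to 4.00 CPM, so both sums separated the sets, in opposite directions.

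**Figure D4:**
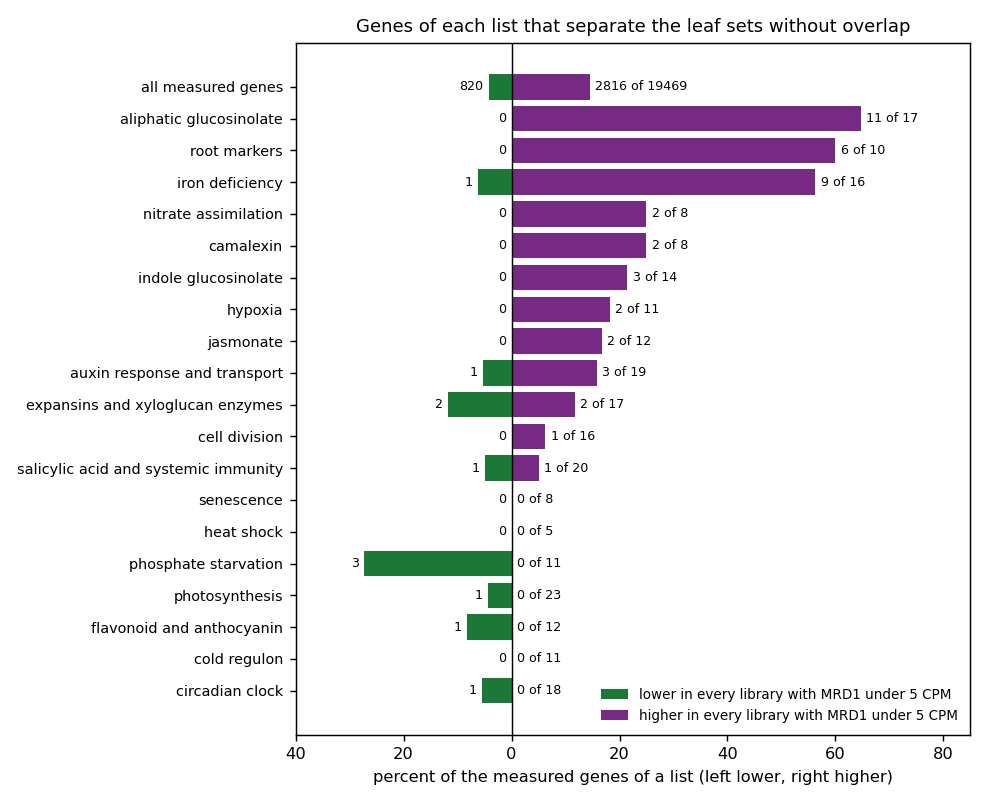
Percent of the measured genes of each list (horizontal axis, lower genes to the left and higher genes to the right of 0) that separated the leaf sets without overlap, for the lists drawn, with the number of genes at each bar and all measured genes at the top. Among the lists drawn, which leave out the kinases and the flower, seed and leaf markers, aliphatic glucosinolate genes (11 of 17), root markers (6 of 10) and iron deficiency genes (9 of 16) had the largest shares of higher genes and phosphate starvation genes (3 of 11) the largest share of lower ones. By the filter on low counts, 4 of the 9 higher iron genes and 1 of the 3 lower phosphate genes had to separate.

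The libraries within each set were not alike. In a principal component analysis of the leaf libraries, component 1 held 45.4% of the variance and followed the labels, with scores of 33.7, 6.76 and 36.1 for WT leaf 1, 2 and 3 and of -33.6, -29.4 and -13.7 for pi4kß1ß2 leaf 1, 2 and 3. Component 2 held 33.1% and followed the MRD1 sets, from 12.8 to 35.0 in the MRD1-high and from -39.6 to -7.84 in the MRD1-low libraries. In the MRD1-high set, pi4kß1ß2 leaf 1 was at least 2-fold above both other libraries for 542 genes and 2-fold below both for 338. In the MRD1-low set, WT leaf 2 was 2-fold above both others for 169 genes and below both for 159. The libraries most alike were WT leaf 1 and WT leaf 3 (Pearson's r = 0.992 across genes) and pi4kß1ß2 leaf 2 and pi4kß1ß2 leaf 3 (r = 0.993). Genes are not independent replicates, and these values are a description.

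**Figure D5:**
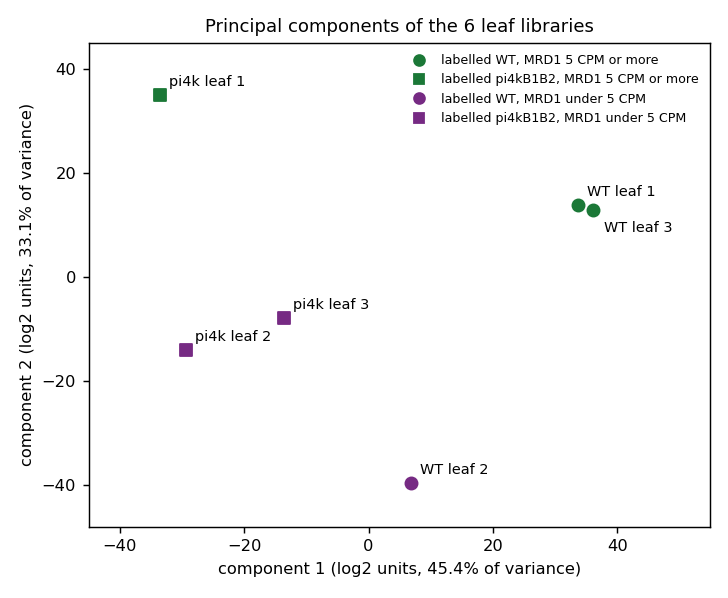
Scores of the 6 leaf libraries on component 1 (horizontal axis, 45.4% of the variance) and component 2 (vertical axis, 33.1%) of log2(CPM + 0.5), with colour for the MRD1 set and symbol shape for the label. Component 1 separated the labels, and component 2 separated the MRD1-high libraries, at 12.8 to 35.0, from the MRD1-low libraries, at -39.6 to -7.84.

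The clock and cold genes followed the labels and not the sets. By label, edgeR called 1317 genes lower (6.76%) and 724 higher (3.72%) in the leaf libraries labelled pi4kß1ß2, of 19470. Of 18 clock genes, 9 were lower and 3 higher by label, whereas only PRR7 separated the sets, by a gap of -0.07. TOC1, a core component of the evening, was at 76.9, 68.2 and 80.8 CPM in WT leaf 1, WT leaf 3 and WT leaf 2 and at 22.6, 27.1 and 27.6 CPM in pi4kß1ß2 leaf 1, leaf 2 and leaf 3 (log2 fold change -1.52 ± 0.09, SE, adjusted p = 0.0036). LHY, a core component of the morning, rose by a log2 fold change of 2.77 ± 0.34 (SE, adjusted p = 0.0137). Without pi4kß1ß2 leaf 2 the calls of TOC1 (adjusted p = 0.0553) and LHY (0.0710) were lost, and that of LHY also without WT leaf 1 (0.0694) or WT leaf 3 (0.0630). Neither TOC1 nor LHY was called in roots (adjusted p = 0.659 and 0.647). Of 11 cold genes, 6 were lower by label and 0 separated the sets. RD29A was at 120, 105 and 137 CPM in the libraries labelled WT and at 18.4, 17.7 and 20.8 CPM in those labelled pi4kß1ß2 (log2 fold change -2.64 ± 0.13, SE, adjusted p = 0.00263). For these genes the library labelled WT leaf 2 stood with the other WT libraries, and pi4kß1ß2 leaf 1 with the other libraries of its label. The number of leaf calls by label rested on single libraries, since 2041 calls became 55 without WT leaf 1, 68 without WT leaf 3, 12 without pi4kß1ß2 leaf 2, 1331 without pi4kß1ß2 leaf 1 and 746 without pi4kß1ß2 leaf 3.

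The counts between the sets also moved with single libraries. Without pi4kß1ß2 leaf 1, 3923 genes were lower and 4495 higher in the MRD1-low libraries, and without WT leaf 2 the numbers were 1516 and 4264. With fewer libraries more genes separate by construction, since each set has fewer values to overlap. Without pi4kß1ß2 leaf 3, 1276 genes were lower.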

How the data were processed

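Gene expression was measured by RNAseq of polyadenylated RNA in 12 libraries. The authors trimmed the reads, removed ribosomal sequences, aligned the rest with STAR against TAIR10. They deposited 1 table of read counts by gene per library, not normalized and without multi-hits. Reads not counted on a gene were 2.67% to 2.97% of the stranded total and were left out. The column for the library's own strand was taken. CPM is the count divided by the column sum, times 1e6. Names and coordinates come from TAIR10.1, which matched 37051 of 37336 gene IDs.

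Leaf libraries were grouped by MRD1 at 5 CPM, and genes that reached 1 CPM in 3 or more of the 6 libraries were compared. A gene separated the sets when its highest value in one set lay below its lowest in the other, and 0.5 CPM was added for log2 values. Genotypes were tested by label within each organ with edgeR 4.0.16 (quasi-likelihood, robust, TMM) in R 4.3.3, with Benjamini-Hochberg adjustment at 0.05, on fold changes of pi4kß1ß2 against WT. Tables were made with pandas 2.3.3 and numpy 2.4.6 in Python 3.11.15. Code was tested on simulated data.

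Other settings tried were the likelihood ratio test of edgeR, DESeq2 1.42.0, RLE and TMM scaling, filters on low counts, counts without strand, a replicate block, MRD1 thresholds of 2 and 10 CPM, a gap of 1, root calls past a log2 fold change of 1.5, and each library left out. Replicate numbers come from the labels. The deviations of same-numbered leaf libraries from their label means correlated at 0.36, 0.66 and 0.15 across genes. Leaf libraries with different numbers reached at most 0.147, for WT leaf 3 and pi4kß1ß2 leaf 1. Both libraries numbered 1 were in the same MRD1 set, as were both numbered 2, so their correlations cannot tell a pairing from the sets. Number 3 hardly stood out, so these values do not settle whether the numbers pair the leaf libraries. Leaf p-values are from the fit without the block, so they leave any such pairing out. With the block, the edgeR quasi-likelihood test gave adjusted p = 0.0177 for TOC1, 0.0343 for LHY, 0.0157 for RD29A, 0.0333 for OPT3 and 0.0382 for FER1. Genes named were the 12 with the widest gap in each direction, the 8 with the largest root rise and fall, both kinases and up to 3 of each list, with further genes chosen after their values were seen. A result under this rule is not reported here. Libraries, lists and rules were chosen with earlier results of these data known.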

Additional observations from a re-analysis of the deposited data

How the results depend on the processing

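The root comparison called from 3795 to 4340 genes with each library left out and 4867 with the replicate block, against 5233, and of 59 named or listed genes called in roots, 12 lost the call under at least 1 alternative and 0 reversed. Root numbers were not taken to pair the samples. Same-numbered root libraries correlated at -0.03, 0.32 and 0.60, and WT root 1 and pi4kß1ß2 root 2 at 0.51. By label in leaves, the replicate block gave 1683 calls against 2041, DESeq2 gave 3742, and leaving out each library gave from 12 to 2219. Genes lower in the MRD1-low libraries (820) numbered 1570 with TMM, 8 with a gap of 1 and from 1063 to 3923 with each leaf library left out. Genes higher there (2816) numbered 71 with a gap of 1, from 3026 to 4495 with each library left out, and 263 without the genes that were higher in every root than in every leaf library, an alternative chosen after seeing the data. The share of root-lower genes that were lower in the MRD1-low libraries (9.83%) was 15.2% with TMM, 0.18% with a gap of 1, 26.3% among root changes past 1.5, 15.8% without the root-preferring genes and from 12.0% to 23.4% with each library left out. The numbers over all leaf genes moved too, so a larger share is not by itself a larger excess. The 15.2% goes with 1570 lower genes in all, and the 23.4%, without pi4kß1ß2 leaf 1, with 3923, against 820. The 15.8% stands beside 8.14% of all leaf genes without the root-preferring ones. The share of root-higher genes that were higher (34.8%) was 2.25% with a gap of 1, 12.8% without the root-preferring genes and from 34.6% to 45.9% with each library left out. The 45.9%, also without pi4kß1ß2 leaf 1, goes with 4495 higher genes in all, against 2816. The 12.8% stands beside 2.89% of all leaf genes without the root-preferring ones. Thresholds of 2 and 10 CPM gave the same sets. Depth limits genes under about 1 CPM, since 3 counts correspond to 0.0730 to 0.0787 CPM in leaf libraries, and such values cover counting error only.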
